A study of Mus musculus with 2 samples.

Results

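The MT2 and MLT2 long terminal repeats (LTRs) of the ERVL class of endogenous retroviruses were examined in a ChIP-seq experiment on H3.3S31ph, the form of histone H3.3 that carries a phosphate on serine 31, in mitotic mouse embryonic stem (ES) cells. Rows were chosen by name, as repeat types whose names start with MT2, MERVL, ERVL or MLT2. Earlier results of these data were known when this choice was made. The tables held 15 such rows among 952 repeat types, namely 5 MT2 rows and 10 MLT2 rows. No row name started with MERVL or ERVL, so the internal, protein-coding parts of these elements were not analysed here. MERVL is thus represented by the row of its LTR, MT2_Mm.

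The ChIP sample came from wild-type ES cells of the strain 129S1/SvImJ at fewer than 20 passages, precipitated with an antibody to H3.3S31ph. The input sample was sheared chromatin of the same strain and treatment, sequenced without antibody. All cells had been held for 12 hours with 9 µM RO-3306, which blocks the kinase CDK1 needed to enter mitosis, and were collected in mitosis 11 hours after its removal. There was 1 ChIP sample and 1 input sample, each read in 2 sequencing lanes, and no source used here gives the share of cells in mitosis. The label of ES cells was not checked against markers, because the tables hold DNA reads of repeats.

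ERVL elements are class III endogenous retroviruses that are flanked by LTRs, which carry the promoter. MERVL is the mouse member that is best known for its transcription from MT2_Mm at zygotic genome activation, and in rare ES cells that resemble that stage. MT2A, MT2B, MT2B2 and MT2C_Mm are LTRs of related elements, and MLT2 LTRs are older relics that mouse shares with other placental mammals. The variant H3.3 is loaded onto chromatin independently of DNA replication, and its serine 31, absent from the canonical H3 histones, is phosphorylated in mitosis.

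Every member had a lower share of reads in the H3.3S31ph ChIP than in the input, and the MLT2 LTRs lay slightly lower than the MT2 LTRs. The value given for a row is its ratio, the percentage of tabulated ChIP reads that fall on the row divided by the percentage of tabulated input reads that do, so that 1 is the input level. All 15 members passed the minimum of 100 input reads over both lanes, as did 704 of the 952 repeat types. The ratio lay below 1 with its whole 95% interval for 15 of 15 members, and for 79.5% of the 704 repeat types. It lay above 1 for 0 of 15 members, and for 7.81% of repeat types. Lying below input was therefore the state of most repeats. Because percentages must sum to 100, a raised share of some repeats lowers the summed share of the rest. The median repeat type had a ratio of 0.805, and how far enriched repeats account for this was not tested. The median member had a ratio of 0.771, which is -0.063 on the log2 scale relative to the median repeat. Together the members made up 1.30% of input reads and 1.02% of ChIP reads.

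Relative to the median repeat, the members lay close by and mostly on its lower side. The interval lay below the median repeat for 8 of 15 members, against 19.2% of the 704 repeat types, and above it for 0 of 15, against 27.3%. Rows with at least 1000 input reads were also set against their own median. Of the 13 members there, 10 had an interval below it, against 31.3% of 406 repeat types. Above it lay 0, against 33.7%. A difference of at least 1.1-fold below the median repeat was reached by 1 member, MLT2B2, and by 14.8% of repeat types. No member lay at least 1.1-fold above it, while 22.3% of repeat types did. The counts below the median repeat moved with the lane. By the interval they were 7 of 15 in lane 1, against 14.3% of repeat types, and 4 of 15 in lane 2, against 13.5%. By the fold they were 2 of 15 in lane 1, against 16.9%, and 4 of 15 in lane 2, against 19.3%. With the pooled reads of all rows but the 5 most abundant as reference, in place of the median repeat, 14 members lay below it by the interval, against 48.0% of repeat types, and 12 by the fold, against 42.2%. The members whose interval lay below the median repeat in the summed reads and in each lane were 3, MT2A, MLT2B2 and MLT2B4. Neither read count nor interval includes any spread between cultures, since there is 1 sample of each kind and all intervals cover counting error only. The members are also not independent of one another, because related LTRs share sequence and short reads can match several of them.

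**Figure D1:**
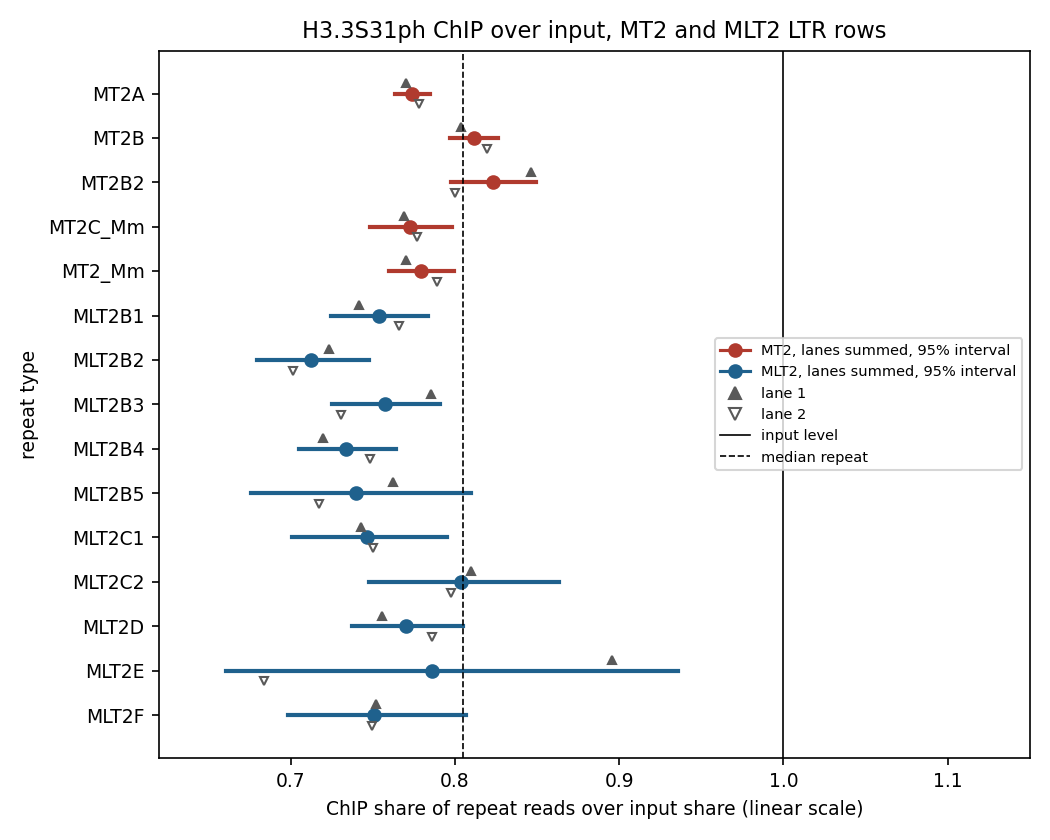
Ratio of ChIP share to input share (linear axis) for the 5 MT2 rows (red) and 10 MLT2 rows (blue), with circles and bars for the summed lanes and their 95% exact interval, and triangles for each lane. All circles lie left of the input level at 1, and only MT2B and MT2B2 lie right of the median repeat at 0.805 (dashed line).

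Of the MT2 rows, MT2A held the most reads. It had 21568 ChIP against 20157 input reads in lane 1 and 20991 against 19638 in lane 2, which made up 45.0% of the input reads of the MT2 rows. Its ratio was 0.770 in lane 1 and 0.778 in lane 2, and 0.774 (0.764 to 0.785) over both. The interval of -0.076 to -0.036 relative to the median repeat (log2) kept it below that median, at rank 234 of 704 from the lowest.

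MT2_Mm, the LTR of MERVL itself, had 6107 ChIP against 5709 input reads in lane 1 and 6032 against 5565 in lane 2. The ratios were 0.770 and 0.789, and 0.779 over both lanes. Relative to the median repeat this is -0.046 (-0.083 to -0.0093) on the log2 scale, so the row lay just under that median in the summed reads. In lane 1 it was -0.067 (-0.12 to -0.014), and in lane 2 it was -0.031 (-0.084 to 0.022), which includes the median repeat. It was not separable from the other 4 MT2 rows pooled, with a log2 ratio of ratios of -0.019 (-0.058 to 0.021). A ratio of ratios divides the ChIP to input ratio of one set by that of another, so it does not depend on how the libraries are scaled.

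MT2C_Mm was the third MT2 row with an interval below the median repeat in the summed reads. With 3925 ChIP against 3676 input reads in lane 1 and 3868 against 3623 in lane 2, it had ratios of 0.769 and 0.777. The summed ratio was 0.773 (0.748 to 0.798), or -0.059 (-0.10 to -0.012) relative to the median repeat on the log2 scale. In lane 2 alone that interval, -0.12 to 0.013, included the median repeat.

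MT2B and MT2B2 stood slightly above the other MT2 rows. MT2B had 12914 ChIP against 11568 input reads in lane 1 and 12524 against 11120 in lane 2, with ratios of 0.804 and 0.820. MT2B2 had 4241 ChIP against 3608 input reads in lane 1 and 4055 against 3689 in lane 2, with ratios of 0.846 and 0.800. Their log2 ratios relative to the median repeat were 0.012 (-0.014 to 0.038) and 0.032 (-0.013 to 0.078), so neither was separable from it. In lane 1 alone, however, the interval of MT2B2 lay above the median repeat, the single such case among members, and in lane 2 it did not.

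Among the 10 pairs of MT2 rows, 6 had a ratio of ratios whose 95% interval excluded 1, and all 6 set MT2B or MT2B2 against 1 of the other 3 rows. MT2B exceeded MT2A by 1.05-fold (1.03 to 1.07) and MT2B2 exceeded MT2A by 1.06-fold, or 0.088 (0.039 to 0.14) on the log2 scale. The widest gap, between MT2B2 and MT2C_Mm, was also 1.06-fold (1.02 to 1.11). These gaps are small, and when intervals were widened to cover all 105 pairs of members at once, 2 of the 10 excluded 1, namely those of MT2B and of MT2B2 over MT2A. For MT2B2 over MT2A the widened interval did so only barely, with a lower bound of 3.3e-05 on the log2 scale. In the single lanes MT2B over MT2A was 0.061 (0.016 to 0.11) and 0.075 (0.029 to 0.12) on the log2 scale. For MT2B2 over MT2A the lanes gave 0.14 (0.066 to 0.21) and 0.040 (-0.030 to 0.11), so that in lane 2 alone the interval included 0.

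The MLT2 rows are less deeply covered, with 255 to 4950 input reads each. Of the 10 rows, 5 had an interval below the median repeat, 5 had one that included it, and the point value of all 10 lay below it. MLT2B2 was the lowest member, with 1739 ChIP against 1731 input reads in lane 1 and 1629 against 1690 in lane 2. Its ratio was 0.723 and 0.702 in the lanes and 0.713 (0.679 to 0.748) over both, which ranks 76 of 704 from the lowest.

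The other MLT2B rows followed closely. MLT2B4 had ratios of 0.720 in lane 1 and 0.748 in lane 2, and 0.734 (0.705 to 0.764) over both. MLT2B1, the best covered MLT2 row, had 0.742 and 0.766 in the lanes and 0.754 (0.725 to 0.784) over both. MLT2B3 had 0.785 and 0.730 in the lanes and 0.757 (0.725 to 0.791) over both. In the summed reads the intervals of these 3 rows lay below the median repeat. That of MLT2B4 did so in each lane too, as did that of MLT2B2, whereas relative to the median repeat (log2) MLT2B1 had -0.15 to 0.0066 in lane 2 and MLT2B3 had -0.13 to 0.051 in lane 1. MLT2B5, with 949 input reads, had 0.762 and 0.717 in the lanes and 0.740 (0.676 to 0.810) over both, an interval that includes the median repeat.

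MLT2C1 had ratios of 0.743 and 0.750 in the lanes and 0.747 (0.701 to 0.795) over both, and it was the remaining MLT2 row with an interval below the median repeat in the summed reads, though in neither lane alone. Its sister row MLT2C2 was the highest of the MLT2 rows, at 0.810 and 0.798 in the lanes and 0.804 (0.748 to 0.863) over both, level with the median repeat. MLT2D had 0.756 and 0.786 in the lanes and 0.771 (0.737 to 0.805) over both. MLT2F had 0.752 and 0.749 in the lanes and 0.751 (0.699 to 0.807) over both. The intervals of MLT2D and MLT2F reached just past the median repeat, by 0.00041 and 0.0036 on the log2 scale.

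MLT2E was the thinnest row and the least certain. It had 153 ChIP and 123 input reads in lane 1, a ratio of 0.896 (0.702 to 1.14), and 124 ChIP and 132 input reads in lane 2, a ratio of 0.684 (0.531 to 0.880). The summed ratio of 0.786 (0.661 to 0.936) covers both the median repeat and every other member. At this depth its place among the MLT2 rows could not be determined.

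With MLT2E included, the spread of the 10 MLT2 rows was no larger than counting error. Their log2 ratios had an SD of 0.050 across rows, and counting error alone had a root mean square of 0.057. The thin row MLT2E, with a counting error of 0.13, raises that root mean square, and the comparison without it was not made. For the MT2 rows the SD was 0.042 and the counting error 0.019. Of the 45 pairs of MLT2 rows, 3 had an interval that excluded 1, MLT2C2 over MLT2B2 and over MLT2B4 and MLT2D over MLT2B2, and 0 did so when intervals covered all 105 pairs. Pooled by letter, the 5 MLT2B rows had a ratio of 0.741 (0.726 to 0.756) and the 2 MLT2C rows one of 0.771 (0.735 to 0.808). The MLT2B rows together lay below the MLT2C to MLT2F rows by a log2 ratio of ratios of -0.052 (-0.10 to -0.0010), a split chosen after the values were seen, and in each single lane that interval included 0.

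The mouse MT2 LTRs were slightly higher than the older MLT2 LTRs. Pooled over rows, the MT2 LTRs had 96225 ChIP and 88353 input reads and a ratio of 0.788 (0.781 to 0.796). The MLT2 LTRs had 28067 ChIP and 27098 input reads and a ratio of 0.750 (0.737 to 0.762). The ratio of ratios was 1.05-fold (1.03 to 1.07), or 0.072 (0.045 to 0.10) on the log2 scale, and it was 0.066 (0.027 to 0.10) in lane 1 and 0.079 (0.040 to 0.12) in lane 2. The difference exceeds counting error in both lanes, and since both lanes read 1 ChIP and 1 input library this is no check across cultures.

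Row by row, the MT2 member was the higher one in 44 of 50 pairs of an MT2 and an MLT2 row. Each row recurs in several pairs, so the pairs are not independent of one another. The 6 exceptions all involved MLT2C2 or MLT2E, set against MT2A, MT2C_Mm and MT2_Mm. The interval excluded 1 in 22 pairs, all with the MT2 row higher. It did so in 16 of the 20 pairs with MT2B or MT2B2. Among the 30 pairs with MT2A, MT2_Mm or MT2C_Mm it did so in 6. With intervals widened for all 105 pairs, 4 remained, MT2B and MT2B2 over MLT2B2 and over MLT2B4. The widest was MT2B2 over MLT2B2, at 1.15-fold (1.09 to 1.22).

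The size of the difference depended on which rows were pooled. Without the most abundant row of each family, MT2A and MLT2B1, the log2 ratio of ratios was 0.095 (0.063 to 0.13). Without MT2B and MT2B2 the log2 ratio of ratios was 0.048 (0.019 to 0.077). Without the 5 MLT2B rows it was 0.038 (-0.0055 to 0.082), which includes 0. The latter 2 alternatives were chosen after seeing the data. MT2_Mm alone over the MLT2 rows gave 0.056 (0.012 to 0.10), with 0.038 (-0.024 to 0.10) in lane 1 and 0.074 (0.011 to 0.14) in lane 2.

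Read depth differed between both families, and its part in the difference was not tested. The MT2 rows had 7297 to 39795 input reads each, all above the MLT2 range. Among the 276 repeat types with 1000 to 10000 input reads, the median ratio was 0.815 and the quartiles were 0.770 and 0.869, while the 10 members in that class had a median of 0.755 and a range of 0.713 to 0.823. Among the 130 repeat types above 10000 input reads the median was 0.813, and the 3 members there, MT2A, MT2B and MT2_Mm, had 0.774, 0.812 and 0.779. As a description, Spearman's rho between the ratio and the input reads was 0.34 over the 15 members, -0.30 within MT2 and -0.26 within MLT2.

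**Figure D2:**
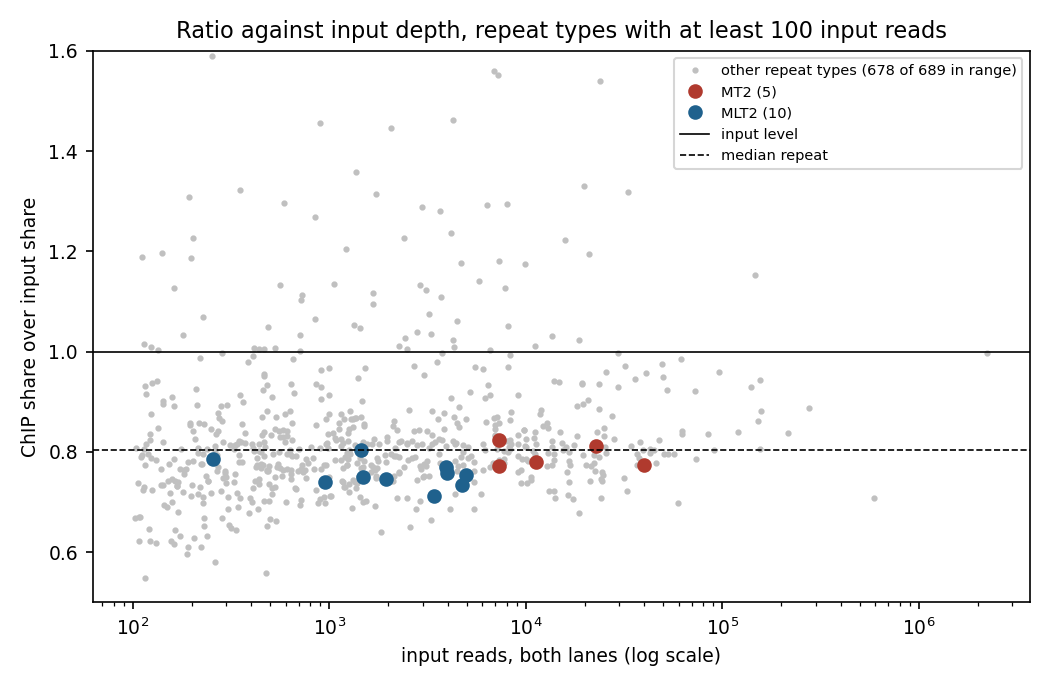
Ratio of ChIP share to input share (linear axis) against input reads over both lanes (log axis) for repeat types with at least 100 input reads, with MT2 rows in red, MLT2 rows in blue and other types in grey; 11 other types lie outside the axis. The members sit between 0.713 and 0.823, inside the main band of repeats and mostly under the median repeat (dashed line).

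To see whether these values set the members apart from related elements, they were compared with 3 sets of rows chosen by name. The first was the 27 rodent MaLR rows, MT and ORR1 elements of mammalian apparent LTR retrotransposons. The second was the 32 ancient MaLR rows, MLT1 and MST. The third was 28 other ERVL-class rows, of the LTR16, LTR33, MER21, MER54, MER68, MER74 and RMER15 types. Unlike the members, each set also holds internal rows, which made up 6, 4 and 3 of its rows. The pooled ratios were 0.798 (0.796 to 0.800) for rodent MaLR, 0.781 (0.776 to 0.785) for ancient MaLR and 0.799 (0.792 to 0.805) for the other ERVL-class rows. In the last set 1 row held 44959 of the 97952 input reads. Counting each row once, the medians of the sets were 0.800, 0.776 and 0.786. All 3 sets thus lay within a narrow range close to the members. The pooled ratio of the members was 0.779 (0.773 to 0.786), below each set by its point value.

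Pooled by reads, the MLT2 LTRs were lower than each of the 3 sets, though the single rows overlapped. MLT2 rows ran from 0.713 to 0.804, inside the 0.686 to 0.865 of ancient MaLR rows. They also lay inside the 0.699 to 0.866 of other ERVL-class rows, and rodent MaLR rows ran from 0.746 to 0.849. At least 1.1-fold below the median repeat were 1 of 10 MLT2, 3 of 32 ancient MaLR, 3 of 28 other ERVL-class and 0 of 27 rodent MaLR rows. The share over all repeat types was 14.8%. The log2 ratio of ratios was -0.089 (-0.11 to -0.065) against rodent MaLR, -0.058 (-0.084 to -0.032) against ancient MaLR and -0.091 (-0.12 to -0.064) against the other ERVL-class rows. In both lanes the intervals of all 3 comparisons stayed below 0. In fold, the ratio of ratios to the other ERVL-class rows was 0.939 (0.921 to 0.957).

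The MT2 LTRs, in contrast, stood level with the related sets or very near them, with the internal rows of those sets included. Against rodent MaLR their log2 ratio of ratios was -0.017 (-0.031 to -0.0032), against ancient MaLR 0.014 (-0.0015 to 0.030) and against the other ERVL-class rows -0.019 (-0.037 to -0.00040). None of these 3 kept an interval on one side of 0 in both lanes. MT2_Mm alone had intervals that included 0 against all 3 sets over the summed lanes, at -0.033 (-0.071 to 0.0038), -0.0021 (-0.040 to 0.036) and -0.035 (-0.074 to 0.0040). In lane 1 alone MT2_Mm lay below the other ERVL-class rows, at -0.064 (-0.12 to -0.0093), and in lane 2 it did not, at -0.0052 (-0.061 to 0.050). All these comparisons include the internal rows of the sets. The LTR rows alone had pooled ratios of 0.802 in rodent MaLR, 0.781 in ancient MaLR and 0.803 in the other ERVL-class rows. The MT2 LTRs had 0.788 and MT2_Mm 0.779. Ratios of ratios against the LTR rows alone were not computed.

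**Figure D3:**
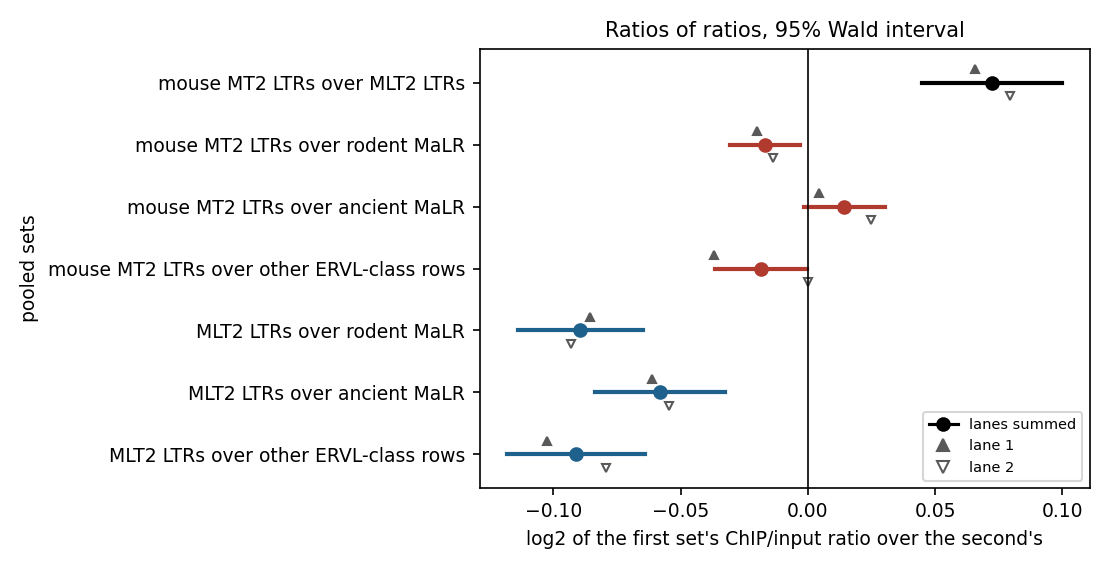
Log2 ratio of ratios of pooled rows, with circles and bars for the summed lanes and their 95% Wald interval and triangles for each lane; 0 means that both sets had the same ChIP to input ratio. MT2 lies above MLT2 at 0.072, the MLT2 comparisons (blue) lie from -0.091 to -0.058, and the MT2 comparisons (red) lie from -0.019 to 0.014.

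Taken as one set, the members were lower than all other repeats pooled by a log2 ratio of ratios of -0.36 (-0.38 to -0.35), a fold of 0.777. That pool weights each row by its reads. Counting each row once, the median of the 689 other rows with at least 100 input reads was 0.806, which is close to the members. Against rodent MaLR all members pooled gave -0.034 (-0.046 to -0.021), against ancient MaLR -0.0023 (-0.017 to 0.012) and against the other ERVL-class rows -0.035 (-0.052 to -0.018). The last of these was -0.052 in lane 1 and -0.018 (-0.042 to 0.0060) in lane 2, so that in lane 2 it was not separable from 0. Without the row with most input reads on each side, it was -0.023 (-0.045 to -0.0010) over both lanes.

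The lanes differed by no more than counting error for any member. The log2 ratios of the lanes were between 0.0053 (MLT2F) and 0.39 (MLT2E) apart, with a median of 0.044, and 0 of 15 differences exceeded 1.96 standard errors of the reads. The interval lay below 1 in both lanes for 14 of 15 members, MLT2E being the exception. The side of the median repeat was the same in both lanes for 11 of 15, and the other 4 were MT2B, MT2B2, MLT2C2 and MLT2E.

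In the authors' deposited table, on its own scale, the log2 ratio of the members ran from -0.306 to 0.0080 in lane 1 and from -0.38 to -0.118 in lane 2. For the members, its conservative value was the bound nearer 0 of the authors' interval, or 0 where that interval included 0. This value was below 0 for 14 of 15 members in lane 1 and 15 of 15 in lane 2. Of all 952 rows, 40.8% and 40.2% were below 0, and 437 and 446 rows were at exactly 0. These shares are not matched for depth, since 248 of the 952 rows had fewer than 100 input reads and each member had at least 255. By the intervals on table totals, 79.5% of the 704 repeat types with at least 100 input reads lay below 1. For MT2_Mm the authors' deposited table gave a log2 ratio of -0.208 in lane 1 and -0.174 in lane 2. For MT2A it gave -0.208 and -0.194, and for MLT2B2 -0.299 and -0.343, so the order of these 3 rows was the same as in the summed reads except that MT2A and MT2_Mm tied in lane 1.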

How the data were processed

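Per the submitters' processing notes, Bowtie 1.0.0 and the build mm9 were used. The assignment of reads to repeat types, and the handling of duplicates and of reads that match several types, are not given in the sources used here. Raw read counts per repeat type for ChIP and input were deposited by the authors, 1 table per lane. The authors also deposited a log2 ratio with bounds. On the values, it is log2 of (ChIP + 0.5) over (input + 0.5), less 0.31 in lane 1 and 0.29 in lane 2, to within 0.00053. Tabulated reads numbered 6204712 (ChIP) and 4467116 (input) in lane 1 and 6030765 (ChIP) and 4389635 (input) in lane 2.

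Counts of both lanes, which are runs of 1 library each for ChIP and input, were added up. Ratios were scaled by the table totals, with 95% exact conditional (Clopper-Pearson) intervals. Ratios of ratios of pooled reads have 95% Wald intervals on the log odds ratio. For pairs of members, intervals at 99.952% cover all 105 pairs (Bonferroni). With 1 sample per group no test between conditions was possible. The median repeat was the median ratio over repeat types with at least 100 input reads and was treated as exact. The computation was tested on simulated data (Python 3.11.15, scipy 1.17.1).

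Every row that fits the name rule is described. The members and lists were chosen with earlier results of these data known. Planned comparisons with internal rows could not be made, since no member is internal. Alternatives were each lane, other scales or references, other read minimums and leaving out the most abundant row.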

Additional observations from a re-analysis of the deposited data

How the results depend on the processing

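No paired analysis was possible because each group holds 1 sample. Planned results on internal rows gave no value. The members with an interval below 1 numbered 14 or 15 over single lanes, no read minimum, totals without the 5 most abundant repeats and the deposited scale. With at least 1000 input reads they numbered 13, which were all the members left, since MLT2B5 and MLT2E have fewer reads. With the median repeat set to 1, an alternative chosen after seeing the data, they numbered 8. Those below the median repeat numbered 8, but 4 in lane 2 alone, against 13.5% of repeat types. With at least 1000 input reads they numbered 10 of 13, against 31.3%. With pooled reads without the 5 most abundant repeats as reference they numbered 14, against 48.0%. Those at least 1.1-fold below numbered 1, but 2 in lane 1, 4 in lane 2 and 12 with that pooled reference, against 16.9%, 19.3% and 42.2% of repeat types. With at least 1000 input reads they numbered 2 of 13, against 10.1%. Above the median repeat, lane 1 gave 1 by the interval (MT2B2) and 1 by the fold (MLT2E), against 0 and 0 in the summed lanes and 25.3% and 24.4% of repeat types in lane 1. With the pooled reference, which shifts every log2 value by the same amount, the medians were -0.17 for all members, -0.16 for MT2 and -0.21 for MLT2, and the pooled values -0.14 for MT2 and -0.21 for MLT2. Of the ratios of ratios, MT2 over MLT2 was 0.038 without the MLT2B rows, and members over other ERVL-class rows was -0.018 in lane 2, with intervals that include 0. MT2B and MT2B2, not separable from the median repeat, were at -0.099 and -0.078 with the pooled reference; no other direction changed with it. Single lanes hold fewer reads, which widens their intervals. Depth limits MLT2E most.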

Other observations

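Since no member row was internal, LTR and internal rows were set against each other in the 3 related sets, a comparison chosen after seeing that the members lacked such rows. Pooled over rows, internal reads had a lower ratio than LTR reads in each set, though not every internal row did. The log2 ratio of ratios of internal over LTR rows was -0.068 (-0.080 to -0.055) in rodent MaLR, with 6 internal and 21 LTR rows. In ancient MaLR it was -0.073 (-0.13 to -0.012), with 4 and 28 rows, and in the other ERVL-class rows -0.056 (-0.093 to -0.020), with 3 and 25 rows. In lane 1 alone the intervals of the latter 2 sets included 0, at -0.054 (-0.14 to 0.032) and -0.042 (-0.094 to 0.0091), and in lane 2 all 3 excluded it.

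The 3 internal ERVL-class rows were RMER15-int, MER21-int and MER68-int. RMER15-int, with 12786 input reads, had a ratio of 0.773 (0.754 to 0.792). The other two had 299 and 202 input reads and ratios of 0.738 (0.627 to 0.869) and 0.781 (0.642 to 0.951). Among the rodent MaLR rows, MTC-int had a ratio of 0.746 (0.733 to 0.759) and ORR1B1-int one of 0.748 (0.736 to 0.760), while ORR1A1-int, at 0.810 (0.793 to 0.827), and ORR1D-int, at 0.815 (0.772 to 0.861), were level with the median repeat and above the pooled rodent MaLR LTR ratio of 0.802 by their point values. Whether the internal sequence of MERVL lies below MT2_Mm was not analysed here.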
